A study of Mus musculus with 8 samples.

Results

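The genes of the mitochondrial ribosomal proteins were described in mouse liver after re-feeding and after fasting, in mice labelled as lacking the Mediator subunit Med23 in liver and in control mice. Members were the loci whose symbol starts with Mrpl or Mrps followed by a number and whose FPKM (a level per length of transcript and per number of mapped fragments) reached 1 in 2 or more libraries. This gave 76 of 23699 listed loci, 47 with an Mrpl symbol (large subunit) and 29 with an Mrps symbol (small subunit). All 76 loci with a matching symbol passed the filter, and each symbol had 1 locus. The libraries were polyA RNA sequencing libraries from livers of 8-week-old male C57/BL6 mice. The 4 groups were mice labelled as Med23-deleted in liver (LMKO) that fasted 24 h and were then fed again for 24 h, control mice treated the same way, LMKO mice fasted 24 h, and control mice fasted 24 h. Each group held 2 libraries, and the design text of the series gives 2 mice per group. The alleles and the Cre line behind the deletion, and the alleles that controls carry, are not given in the sources used here.

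Mitochondria keep their own ribosome, which translates the few messages of the mitochondrial genome, all of them subunits of the respiratory chain and ATP synthase. Its RNAs are made inside the organelle, whereas its proteins are encoded in the nucleus, made by cytosolic ribosomes and imported. Part of these proteins descend from bacterial ribosomal proteins and part are found in mitochondria only. The liver is rich in mitochondria, and fasting and feeding change what its mitochondria burn.

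Summed FPKM lay between 453652 and 597650 per library, and the number of sequenced fragments is unknown. Med23 itself was listed at 1.61 and 1.74 FPKM in re-fed LMKO livers, against 2.86 and 2.33 FPKM in re-fed control livers. In fasted livers it was listed at 2.35 and 2.18 FPKM in LMKO, against 2.86 and 2.93 FPKM in control. LMKO libraries were lower without overlap in both states, but the locus did not pass the limma test (mean of both states, log2 fold change -0.34, adjusted p = 0.17). Values are per gene, so a deleted exon cannot be seen in them. Of 10 hepatocyte marker genes, 9 were tested and summed to 23691 to 36148 FPKM in every library, while albumin was listed at 0 throughout. Marker sums of other liver cells moved with feeding. The 6 endothelial markers summed to 37.8 to 49.8 FPKM in re-fed and 55 to 82.2 FPKM in fasted livers (5 of 6 fell after re-feeding), and the 6 macrophage markers to 22.7 to 47.6 FPKM in re-fed and 55.5 to 77.4 FPKM in fasted livers (4 of 6 fell). The 6 stellate markers summed to 40.4 to 69.7 FPKM in re-fed and 77 to 87.1 FPKM in fasted livers (2 of 6 fell), and the 3 red cell markers to 63.3 to 126 FPKM in re-fed and 30.6 to 71.7 FPKM in fasted livers. The 5 cholangiocyte markers stayed at or below 6.09 FPKM in sum and the 5 lymphocyte markers at or below 1.77 FPKM. The part of other cells in the results below was not tested, and in whole liver fewer cells of a type and less RNA per cell cannot be told apart. The names of the deposited tables carry 1 prefix for all fasted and another for all re-fed libraries. If that prefix marks a batch, batch and feeding cannot be told apart. Within each feeding state, LMKO and control share the prefix.

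Per length of transcript the members covered a wide range of levels. The highest was Mrpl12, a protein of the stalk that recruits translation factors, at 170 and 171 FPKM in re-fed LMKO, 152 and 140 FPKM in re-fed control, 99.2 and 95.0 FPKM in fasted LMKO, and 88.1 and 96.7 FPKM in fasted control. Mrpl52, Mrps21, Mrpl30 and Mrpl42 came next in the mean over the 8 libraries. The lowest was Mrps25, a small subunit protein found in mitochondria only, at 4.47 and 4.2 FPKM in re-fed LMKO, 3.55 and 4.21 FPKM in re-fed control, 1.84 and 1.79 FPKM in fasted LMKO, and 2.00 and 1.57 FPKM in fasted control. Mrpl19, Mrpl35, Mrpl11 and Mrpl41 were the next lowest. All 76 members were above 1 FPKM and 60 above 10 FPKM in every library. The 5 highest genes held between 17.9% and 21% of the summed member FPKM of a library. The order of the members was similar in all libraries, with Spearman's rho across the 76 genes between 0.93 and 0.99 for any pair of libraries; genes are not independent replicates.

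The question put by the feeding arms is how livers differ after re-feeding and after fasting. Both subunits were higher in re-fed livers, in LMKO and in control mice. The 47 Mrpl genes summed to 2258 and 2313 FPKM in re-fed LMKO, against 1305 and 1197 FPKM in fasted LMKO, and to 1799 and 1893 FPKM in re-fed control, against 1097 and 1114 FPKM in fasted control. The 29 Mrps genes summed to 1205 and 1239 FPKM in re-fed LMKO, against 652 and 613 FPKM in fasted LMKO, and to 946 and 1029 FPKM in re-fed control, against 564 and 576 FPKM in fasted control. Every re-fed library stood above every fasted library for both sums. Members made up 0.53% to 0.61% of all FPKM in re-fed libraries and 0.36% to 0.42% in fasted libraries. The ratio of the Mrpl to the Mrps sum was 1.87 and 1.87 in re-fed LMKO, 1.90 and 1.84 in re-fed control, 2.00 and 1.95 in fasted LMKO, and 1.95 and 1.94 in fasted control.

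**Figure D1:**
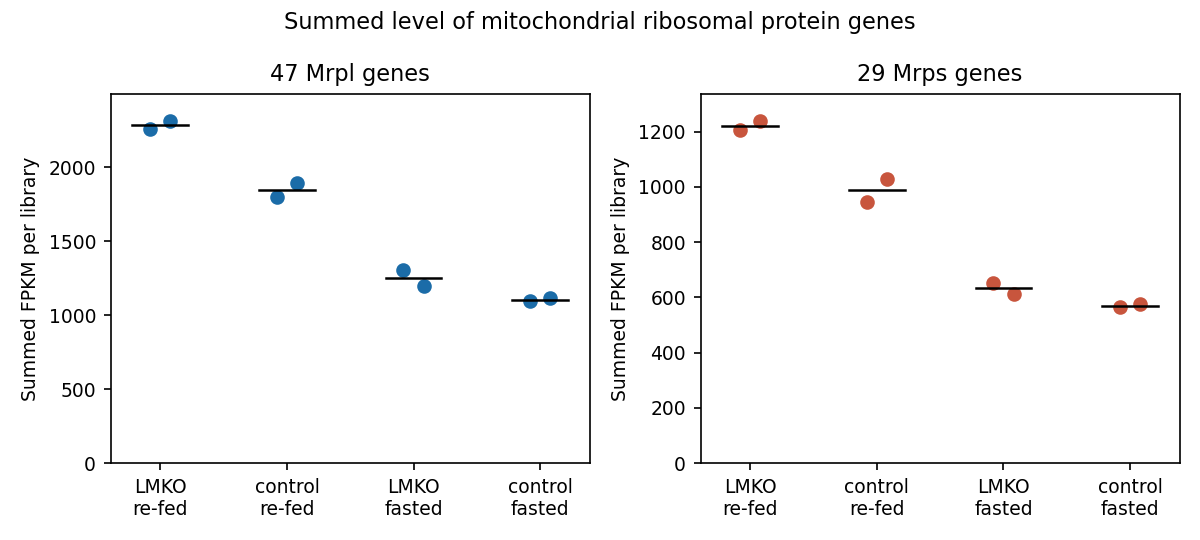
Summed FPKM (y axis, from 0) of the 47 Mrpl genes (left panel) and the 29 Mrps genes (right panel) in each of the 8 libraries; points are libraries (1 mouse each) and bars are means of 2. Both re-fed groups stand above both fasted groups, and LMKO stands above control within each feeding state.

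Over both genotypes, 74 of 76 members rose after re-feeding and none fell (limma on log2(FPKM + 1), adjusted p under 0.05 over all 10865 tested loci), against 32.4% of all tested loci that were called higher and 20.6% that were called lower. These were 45 of 47 Mrpl and 29 of 29 Mrps genes. The median log2 fold change was 0.66 for Mrpl and 0.76 for Mrps genes, against 0.10 for all tested loci. For 71 members all 4 re-fed libraries stood above all 4 fasted libraries, as they did for 28.5% of all tested loci. The count of called members was between 70 and 73 with any 1 library left out.

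The largest rise was that of Mrps12, the small subunit protein at the decoding centre, on chromosome 7 (mm9, 29524660 to 29526800). It had 65.9 and 55.6 FPKM in re-fed LMKO, against 20.3 and 18.9 FPKM in fasted LMKO, and 46.3 and 52.5 FPKM in re-fed control, against 18.4 and 17 FPKM in fasted control. The groups were far apart in both genotypes, with a log2 fold change of 1.505 ± 0.09 (SE, limma, adjusted p = 0.00017). Mrps27, a small subunit protein of the pentatricopeptide repeat family, came next. It had 22.7 and 26.9 FPKM in re-fed LMKO, against 10.6 and 11.1 FPKM in fasted LMKO, and 27.4 and 25.2 FPKM in re-fed control, against 9.71 and 7.80 FPKM in fasted control. Its log2 fold change was 1.31 ± 0.10 (SE, limma, adjusted p = 0.00027), and in re-fed livers its LMKO and control libraries overlapped.

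Mrpl23, which lines the exit of the peptide tunnel, rose most among large subunit genes. It had 72.8 and 74.9 FPKM in re-fed LMKO, against 30.4 and 27.1 FPKM in fasted LMKO, and 47.6 and 53 FPKM in re-fed control, against 25.5 and 20.8 FPKM in fasted control. The log2 fold change was 1.21 ± 0.10 (SE, limma, adjusted p = 0.00029). Mrps28, Mrps11, Mrps7, Mrpl52, Mrps15, Mrpl18 and Mrpl42 completed the 10 largest rises, with log2 fold changes between 1.03 (Mrpl42) and 1.19 (Mrps28). Mrps7 and Mrps11 are homologues of bacterial proteins of the head and the platform of the small subunit, and Mrpl18 sits in the central protuberance of the large one. Mrps11 had the widest spread of these, with 20.2 and 14 FPKM in re-fed LMKO, against 8.78 and 5.94 FPKM in fasted LMKO.

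At the other end stood genes of both subunits, and those that did not pass were of the large one. Mrpl17, another protein near the tunnel exit, was the 1 member with a value below 0 (log2 fold change -0.03 ± 0.10, SE, limma, adjusted p = 0.84). It had 8.30 and 9.28 FPKM in re-fed LMKO, against 8.59 and 6.99 FPKM in fasted LMKO, and 6.76 and 6.33 FPKM in re-fed control, against 7.01 and 8.55 FPKM in fasted control. In control livers the re-fed libraries lay below the fasted ones and in LMKO livers the groups overlapped. Mrpl9, the homologue of a protein at the base of the bacterial L1 stalk, missed the threshold at 0.29 (limma, adjusted p = 0.060). The smallest rises that passed were those of Mrpl47 (0.25), Mrpl24 (0.30), Mrpl3 (0.32), Mrps31 (0.35) and Mrps2 (0.37). Mrps23, Mrps9, Mrps5, Mrpl44 and Mrps35 came next. Mrpl24 and Mrpl47 also lie around the tunnel exit, so the 8 genes listed for that place held both the largest rise among Mrpl genes and 3 of the smallest values.

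**Figure D2:**
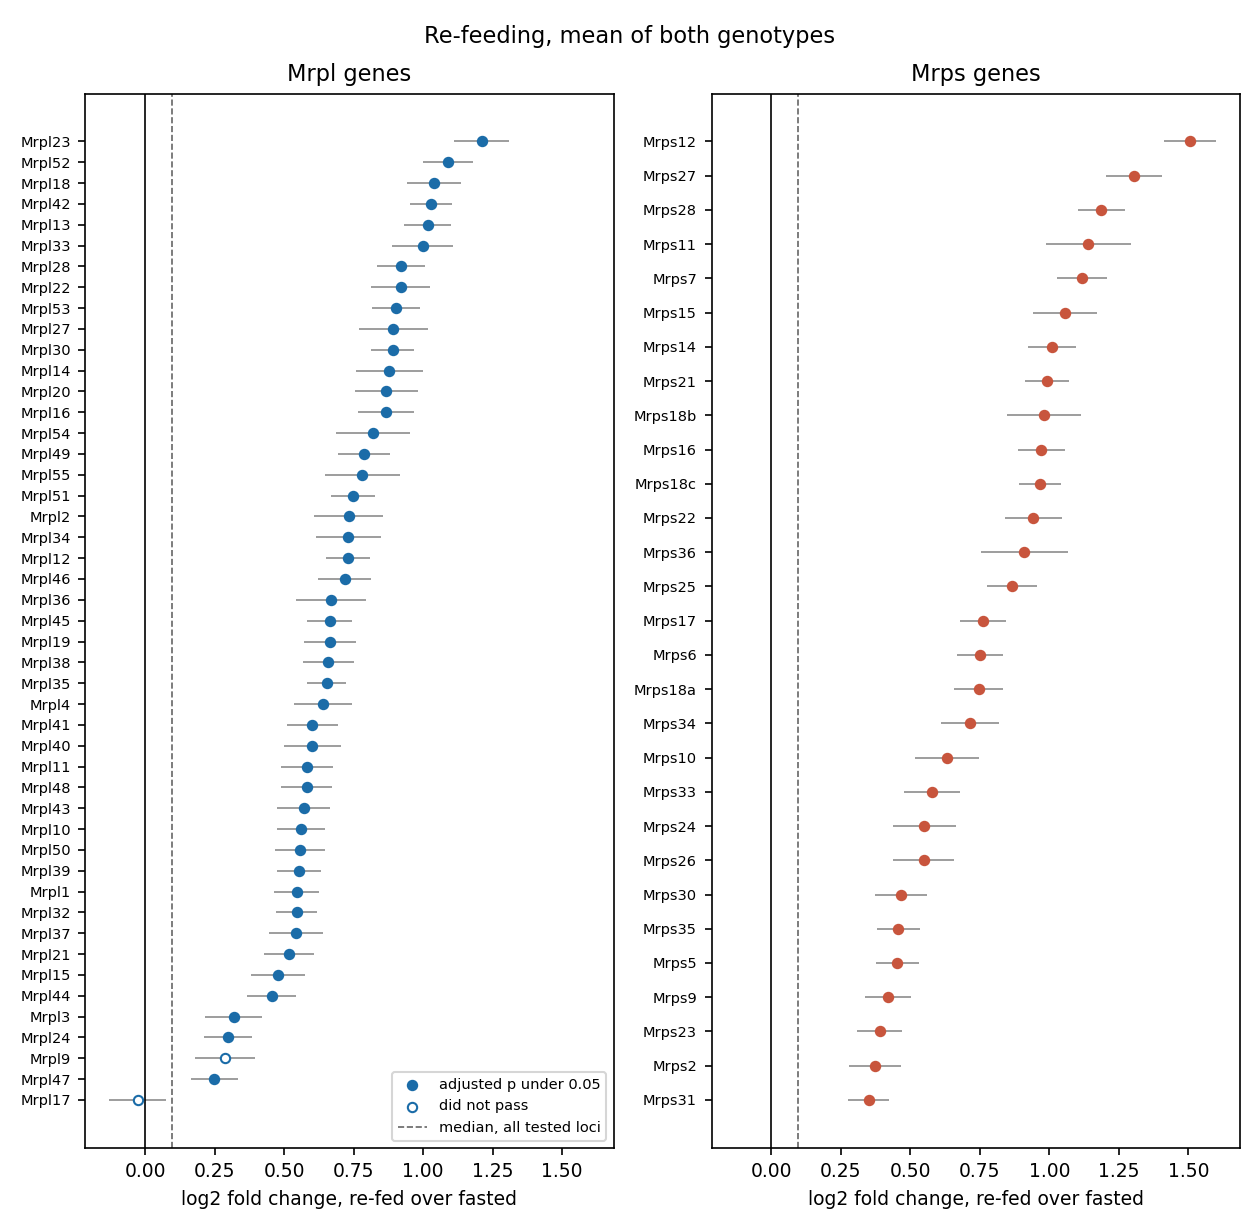
Log2 fold change of FPKM + 1, re-fed over fasted, mean of LMKO and control (x axis), for each Mrpl gene (left) and Mrps gene (right), ordered by size; points are limma estimates from 4 re-fed and 4 fasted libraries and lines are standard errors. Filled points passed an adjusted p of 0.05, open points did not, and the dashed line is the median of all tested loci (0.10). All genes but Mrpl17 lie right of 0.

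Within LMKO mice 73 of 76 members rose after re-feeding and none fell (background 23.2% called higher, 16.3% lower), with medians of 0.69 for Mrpl and 0.84 for Mrps genes, against 0.06 for all tested loci. Within control mice 63 of 76 rose and none fell (background 22.8% called higher, 10.5% lower), with medians of 0.65 for Mrpl and 0.72 for Mrps genes, against 0.13 for all tested loci. Both re-fed libraries stood above both fasted ones for 75 members in LMKO mice (background 41.5%) and for 73 in control mice (background 43.9%). Counts within a genotype rested on single libraries. In LMKO mice 37 members passed without re-fed LMKO replicate 2 and 39 without fasted LMKO replicate 2. In control mice 36 passed without re-fed control replicate 2 and 39 without fasted control replicate 2. The largest rises within LMKO mice were Mrps12 (1.58), Mrpl23 (1.33), Mrps7 (1.21), Mrpl52 (1.19) and Mrps18b (1.18), and within control mice Mrps27 (1.49), Mrps12 (1.43), Mrps28 (1.201), Mrps11 (1.17) and Mrps22 (1.15).

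By place and origin in the ribosome, the members that did not pass were few and lay among bacterial homologues of the large subunit. All 5 stalk proteins rose (median log2 fold change 0.73, mean of both genotypes), as did all 8 proteins of the central protuberance (0.69), while 7 of 8 at the tunnel exit did (0.50). Among Mrpl genes, 28 of 30 homologues of bacterial proteins rose (median 0.70) and 17 of 17 mitochondria-specific ones (0.66). Among Mrps genes, 17 of 17 bacterial homologues rose (median 0.97) and 9 of 9 mitochondria-specific ones (0.58). These shares stand beside the background of 32.4%. The last 3 Mrps symbols belong elsewhere. Mrps18a and Mrps30 sit in the large subunit, and Mrps36 has been assigned to the 2-oxoglutarate dehydrogenase complex. Mrps18a rose by 0.75, Mrps30 by 0.47 and Mrps36 by 0.91 on the log2 scale. Mrps18a is 1 of 3 homologues of bacterial S18, which occupy different places; the other two, Mrps18b and Mrps18c, rose by 0.98 and 0.97.

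Transcript length moved with these values. The median transcript of a member had 1221 bases, against 2548 bases over all tested loci with a known length. Across all these loci, a library's deviation from the mean of the 8 libraries correlated with log2 length at r = -0.37 and -0.35 in re-fed LMKO, -0.02 and -0.33 in re-fed control, 0.26 and 0.30 in fasted LMKO, and 0.27 and 0.24 in fasted control. Short transcripts were therefore listed relatively higher in 3 of 4 re-fed libraries and lower in all 4 fasted ones, and re-fed control replicate 1 stood apart. All tested loci under 1 kb had a median log2 fold change of 0.63 after re-feeding, those of 1 to 2 kb 0.32, and those over 2 kb -0.05. Members had medians of 0.89 (30 genes), 0.64 (28 genes) and 0.55 (18 genes) in the same classes. By these lengths, members thus stood above loci of like length in each class, and furthest above them over 2 kb. Some members placed over 2 kb have deposited loci shorter than the length used, as given below. Across the 76 members, log2 fold change and log2 length correlated at r = -0.49, given as a description.

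With the length trend over all loci taken out of each library, 43 of 76 members passed the test after re-feeding, all in the same direction (26 Mrpl and 17 Mrps genes), against 23% of all tested loci called higher. All 43 were also called in the values as deposited. The median log2 fold change was then 0.28 for Mrpl and 0.47 for Mrps genes, against 0.01 for all tested loci. By place and origin, 2 of 5 stalk genes (median 0.28), 7 of 8 of the central protuberance (0.31) and 5 of 8 of the tunnel exit (0.28) passed. So did 16 of 30 bacterial homologues (0.26) and 10 of 17 mitochondria-specific genes (0.28) among Mrpl, and 11 of 17 (0.47) and 5 of 9 (0.53) among Mrps, where the order of the medians turned. By length, 12 of 30 genes under 1 kb, 15 of 28 of 1 to 2 kb and 16 of 18 over 2 kb passed. Some lengths over 2 kb were longer than the deposited locus itself. These were those of Mrps26 (4278 bases), Mrpl51 (3427 bases), Mrpl32 (3013 bases) and Mrps16 (2572 bases). All of these genes passed, with values of 0.67, 0.77, 0.51 and 0.87. Their length class and corrected values are uncertain, and the counts were not repeated with other lengths for them. The highest values were those of Mrps25 (1.14), Mrps27 (1.06), Mrps12 (0.93) and Mrps7 (0.90), and that of Mrpl24 turned to -0.10. Within LMKO mice 25 members passed (background 15.1%) and within control mice 27 (background 12.7%). Without re-fed control replicate 1, whose length relation stood apart, fewer members passed in control mice and over both genotypes, but not in LMKO mice. Re-fed control mice were then 1 library. In that fit 65 of 76 members were above 0 in control mice and 70 over both genotypes. The medians of all tested loci were 0.0037 and 0.0054. After the trend was taken out, the deviation of members still correlated with length at r between 0.37 and 0.65 in the same 3 re-fed libraries and between -0.49 and -0.22 in the fasted ones, the opposite sign from before. Rn45s, the ribosomal RNA precursor that polyA selection is meant to remove, was listed at 913 and 1386 FPKM in re-fed LMKO, 802 and 3448 FPKM in re-fed control, 1324 and 185.3 FPKM in fasted LMKO, and 306 and 388 FPKM in fasted control. It was thus higher in all re-fed libraries than in 3 of 4 fasted ones, and its part in the feeding and length results was not tested.

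**Figure D3:**
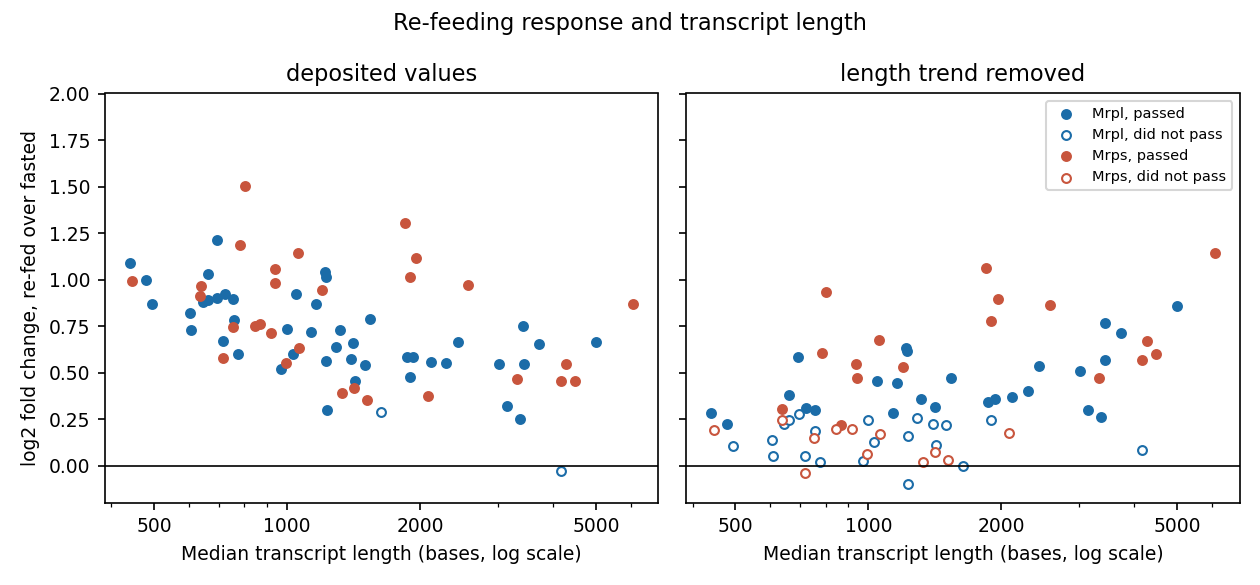
Log2 fold change, re-fed over fasted, mean of both genotypes (y axis) against median transcript length in bases (x axis, log scale) for the 76 members, from the values as deposited (left) and with the length trend over all loci removed (right); filled points passed an adjusted p of 0.05 and open points did not. Short members lie highest on the left and lower on the right, where 43 genes are filled.

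The genotype arms ask how livers labelled LMKO differ from control livers in each feeding state; Med23 itself was listed lower in them but did not pass the test. No member passed the test in re-fed livers (background 0.101% called), in fasted livers (background 0.166%) or in the mean of both (background 0.313%), with 24 members in re-fed livers, 8 in fasted livers and 30 in the mean of both at an unadjusted p under 0.05 by limma. Every one of these lay above 0, and so did most other members. The share of all tested loci above 0 at that p was 7.11% in re-fed livers, 8.79% in fasted livers and 10.8% in the mean of both, and the share below 0 was 4.57%, 3.56% and 4.34%. In re-fed livers 73 of 76 values were above 0, against 51.5% of all tested loci, with medians of 0.25 for Mrpl and 0.26 for Mrps genes beside 0.01 for all loci. In fasted livers 70 of 76 were above 0, against 64.8% of all tested loci, with medians of 0.16 and 0.16 beside 0.08. In the mean of both states 76 of 76 were above 0, against 60.3% of all tested loci, with medians of 0.21 and 0.20 beside 0.04. Both LMKO libraries stood above both control libraries for 60 members in re-fed livers (background 25.6%) and for 36 in fasted livers (background 33%). They stood below them for none in re-fed livers (background 19.4%) and for 2 in fasted livers (background 12.8%). Beside this, macrophage markers summed to 22.7 to 34.4 FPKM in re-fed LMKO, against 45.1 to 47.6 FPKM in re-fed control, and to 60.4 to 77.4 FPKM in fasted LMKO, against 55.5 to 72 FPKM in fasted control. Endothelial markers summed to 37.8 to 49.8 FPKM in re-fed LMKO, against 44.3 to 48.1 FPKM in re-fed control, and to 81.8 to 82.2 FPKM in fasted LMKO, against 55 to 65.2 FPKM in fasted control. Stellate markers summed to 40.4 to 55 FPKM in re-fed LMKO, against 54.7 to 69.7 FPKM in re-fed control, and to 79.4 to 87.1 FPKM in fasted LMKO, against 77 to 84.4 FPKM in fasted control. In fasted livers endothelial, hepatocyte and lymphocyte sums were higher in LMKO without overlap, and red cell and cholangiocyte sums were lower without overlap. Lymphocyte markers there summed to 1.03 to 1.62 FPKM in LMKO, against 0.264 to 0.294 FPKM in control. Macrophage sums did not overlap in re-fed livers. Red cell markers summed to 63.3 to 103.9 FPKM in re-fed LMKO, against 93.5 to 126 FPKM in re-fed control, and to 30.6 to 39 FPKM in fasted LMKO, against 50.1 to 71.7 FPKM in fasted control. Cholangiocyte markers summed to 1.92 to 2.89 FPKM in re-fed LMKO, against 2.75 to 6.09 FPKM in re-fed control, and to 0.935 to 1.11 FPKM in fasted LMKO, against 1.8 to 3.2 FPKM in fasted control. Of the markers of these cell types 1 passed in the mean of both states, the cholangiocyte marker Sox9, which was lower in LMKO livers. It had 0.51 and 0.39 FPKM in re-fed LMKO, against 1.38 and 1.49 FPKM in re-fed control. In fasted livers it had 0.43 and 0.33 FPKM in LMKO, against 1.04 and 1.07 FPKM in control. Sox9 thus met the filter of 1 FPKM only through control libraries, and its call cannot be used as support. None of the markers passed with the length trend removed. Hepatocyte markers summed to 28613 to 36148 FPKM in re-fed LMKO, against 25053 to 30512 FPKM in re-fed control, and to 25551 to 27591 FPKM in fasted LMKO, against 23691 to 25504 FPKM in fasted control. Single hepatocyte markers went both ways: of 9 tested, 5 were above 0 in fasted livers and none passed. In fasted livers Trf and Ttr were higher in LMKO without overlap. Cps1, Apoa1, Apoc3 and Serpina1a were lower there without overlap, so the sum does not speak for the markers as a set. The part of other cells in the genotype values was not tested.

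These counts moved with scaling and length. After removal of the length trend, the members above 0 at an unadjusted p under 0.05 by limma were 12 in re-fed livers (background 4.25%), 6 in fasted livers (background 5.84%) and 10 in the mean of both (background 5.83%). In the mean of both states 71 members were above 0 after median-ratio scaling, 70 after quantile normalization and 69 with the length trend removed (background 50%). In re-fed livers 72 members were above 0 after median-ratio scaling, 70 after quantile normalization and 62 with the length trend removed (background 50.2%). In fasted livers they were 48 after median-ratio scaling, 52 after quantile normalization and 48 with the length trend removed (background 49.2%). With the length trend removed the medians in the mean of both states were 0.08 for Mrpl and 0.08 for Mrps genes, and no member passed (background 0.35%).

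Mrpl48, of the central protuberance, had the smallest unadjusted p in the mean of both states. It had 36.2 and 40.6 FPKM in re-fed LMKO, against 31.1 and 27.2 FPKM in re-fed control, and 28 and 24.5 FPKM in fasted LMKO, against 18.1 and 18.8 FPKM in fasted control. LMKO libraries were higher without overlap in both states, but the log2 fold change of 0.44 ± 0.09 (SE) did not pass (limma, adjusted p = 0.13). Mrpl14 had the largest value, 0.53 ± 0.12 (SE, limma, adjusted p = 0.16). It had 103.4 and 98.7 FPKM in re-fed LMKO, against 64.5 and 84.9 FPKM in re-fed control, and 63.4 and 52.7 FPKM in fasted LMKO, against 40.2 and 34.9 FPKM in fasted control. Mrpl23 (0.43), Mrps18a (0.39), Mrps18c (0.34) and Mrps23 (0.34) followed among the genes with the smallest unadjusted p and did not pass either.

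In re-fed livers alone the smallest unadjusted p belonged to Mrpl30, Mrpl51 and Mrpl23 and to Mrps18a, Mrps21 and Mrps23, with log2 fold changes from 0.46 (Mrps23) to 0.56 (Mrps18a) that did not pass. Mrps18a had 52 and 53.5 FPKM in re-fed LMKO, against 36 and 35 FPKM in re-fed control. In fasted livers alone they belonged to Mrpl49, Mrpl48 and Mrpl14 and to Mrps18c, Mrps28 and Mrps22, with values from 0.31 (Mrps28) to 0.61 (Mrpl14). Mrpl49 had 14.2 and 14.9 FPKM in fasted LMKO, against 11.1 and 8.94 FPKM in fasted control.

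**Figure D4:**
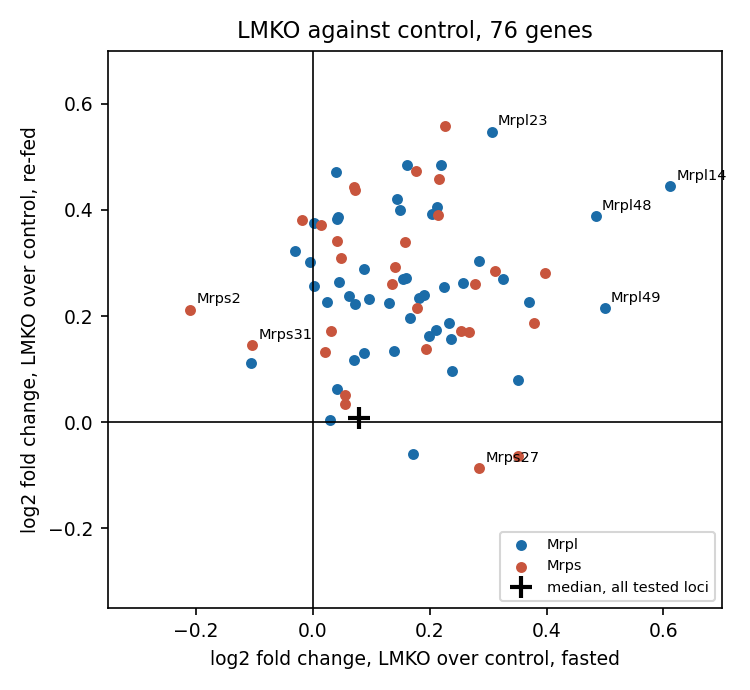
Log2 fold change of FPKM + 1, LMKO over control, in re-fed livers (y axis) and in fasted livers (x axis) for the 76 members; points are limma estimates from 2 against 2 libraries and the cross is the median of all tested loci. No gene passed the test on either axis; most points lie above and to the right of 0.

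The difference between the re-feeding responses of LMKO and control mice was not past the threshold for any member (limma, background 0.0368% called), with 1 member, Mrpl51, at an unadjusted p under 0.05 (background 3.25% above 0 at that p). Mrpl51 had 52.1 and 54.7 FPKM in re-fed LMKO, against 27.2 and 26.6 FPKM in fasted LMKO, and 36 and 40.6 FPKM in re-fed control, against 25.4 and 26.8 FPKM in fasted control. The difference of its log2 fold changes was 0.43 ± 0.16 (SE, limma, adjusted p = 0.51). Of the 76 differences 51 were above 0, against 41.9% of all tested loci. This share moved with length over all tested loci: 65.1% under 1 kb, 51.9% at 1 to 2 kb and 34% over 2 kb. With the length trend removed 46 of 76 members were above 0, beside 5570 of 10865 tested loci. The other genes with the smallest unadjusted p were Mrpl30, Mrpl24, Mrps2, Mrps16 and Mrps22, of which Mrps22 was the only one below 0 (-0.41). A p that misses the threshold with 2 mice per group does not show that the responses are alike.

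Genes that work with the mitochondrial ribosome were set beside its proteins. The 7 subunits that carry other symbols (Dap3, Ptcd3, Aurkaip1, Chchd1, Gadd45gip1, Ict1 and Mrp63) all rose after re-feeding, with a median of 0.82 over both genotypes beside 0.10 for all tested loci. Gadd45gip1, a large subunit protein, rose more than any gene that fits the symbol rule. It had 27.5 and 23.3 FPKM in re-fed LMKO, against 7.72 and 6.74 FPKM in fasted LMKO, and 18.3 and 23.3 FPKM in re-fed control, against 5.67 and 5.78 FPKM in fasted control (log2 fold change 1.68 ± 0.11, SE, limma, adjusted p = 0.00018). With the length trend removed 6 of the 7 passed.

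Of 13 mitochondrial translation factors 8 rose and none fell. Tsfm, the exchange factor of the elongation factor Tufm, rose by 1.15, Mtfmt, which formylates the initiator tRNA, by 0.77, and Tufm by 0.76. Of 17 mitochondrial tRNA synthetases 13 rose, among them Cars2 (1.004), Nars2 (0.74) and Rars2 (0.69). Of 19 factors of ribosome assembly and rRNA modification 7 rose and none fell, a share near the background of 32.4%; Ftsj2 (0.95), Rnmtl1 (0.89) and Nsun4 (0.53), all RNA methyltransferases, were among them. Of 10 genes of mitochondrial transcription and RNA handling 5 rose, led by 1810035L17Rik (Slirp, a partner of Lrpprc in keeping mitochondrial messages stable) at 1.59, and Tfb2m, a factor of mitochondrial transcription, fell by 0.34. With the length trend removed (background 23% called higher, 22.5% lower), 7 of the 13 translation factors and 11 of the 17 synthetases were called higher and none lower. Of the assembly factors 7 were then called higher and 4 lower (median 0.01), and of the transcription and RNA handling genes 2 higher and 2 lower.

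In the values as deposited, cytosolic ribosomal proteins and the respiratory chain moved with the mitochondrial ribosome. Of 83 tested cytosolic ribosomal protein genes 82 rose and 1, Rps27, fell, with a median of 0.96. Of 80 tested genes listed by symbol for the respiratory chain and ATP synthase, 73 rose and 3 fell (Atp5s, Atp5sl and Cox6b2), with a median of 0.64. A match of the symbol does not show that a gene encodes a subunit. Both lists are of short transcripts, with median lengths of 771 and 746 bases, and near-identical copies of cytosolic ribosomal protein genes make their values uncertain. With the length trend removed, 53 of 83 cytosolic ribosomal protein genes were called higher and 1 lower (median 0.36). Of the respiratory chain list 26 of 80 were then called higher and 7 lower (median 0.11). The background was 23% higher and 22.5% lower, and the share called higher in the respiratory chain list was nearer to it. In none of the lists of ribosomal, respiratory chain, mitochondrial expression or regulator genes did a gene pass the LMKO against control test in the mean of both states. At an unadjusted p under 0.05 by limma, 66 of 83 cytosolic ribosomal protein genes and 45 of 80 respiratory chain genes lay above 0 (background 10.8%), and with the length trend removed 20 of 83 and 7 of 80 did (background 5.83%).

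Most regulators known for this gene family went the other way. Of 10 listed, 6 were called lower after re-feeding and none higher, beside 20.6% of all tested loci called lower. Their log2 fold changes ran from -1.25 to 0.33 (median -0.47), with 1 above 0. This list is of long transcripts (median 3544 bases). With the length trend removed 5 were called lower and none higher (median -0.43), beside 22.5% of all tested loci called lower. Ppargc1a, the coactivator PGC-1α that is induced in fasted liver, had 1.26 and 1.499 FPKM in re-fed LMKO, against 3.14 and 3.40 FPKM in fasted LMKO, and 1.79 and 1.84 FPKM in re-fed control, against 6.66 and 6.64 FPKM in fasted control. It fell by 1.14 on the log2 scale (limma, adjusted p = 0.00019). Gabpa, the DNA-binding subunit of an ETS family factor of nuclear genes for mitochondria, fell by 0.63, Yy1 by 0.52 and Nrf1 by 0.42. Gabpa had 6.48 and 7.58 FPKM in re-fed LMKO, against 12.7 and 12.4 FPKM in fasted LMKO. These are levels of mRNA, and protein or activity was not measured. In the mean of both states Ppargc1a had the smallest unadjusted p of this list for LMKO against control (log2 fold change -0.54, limma, adjusted p = 0.057) and did not pass.

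**Figure D5:**
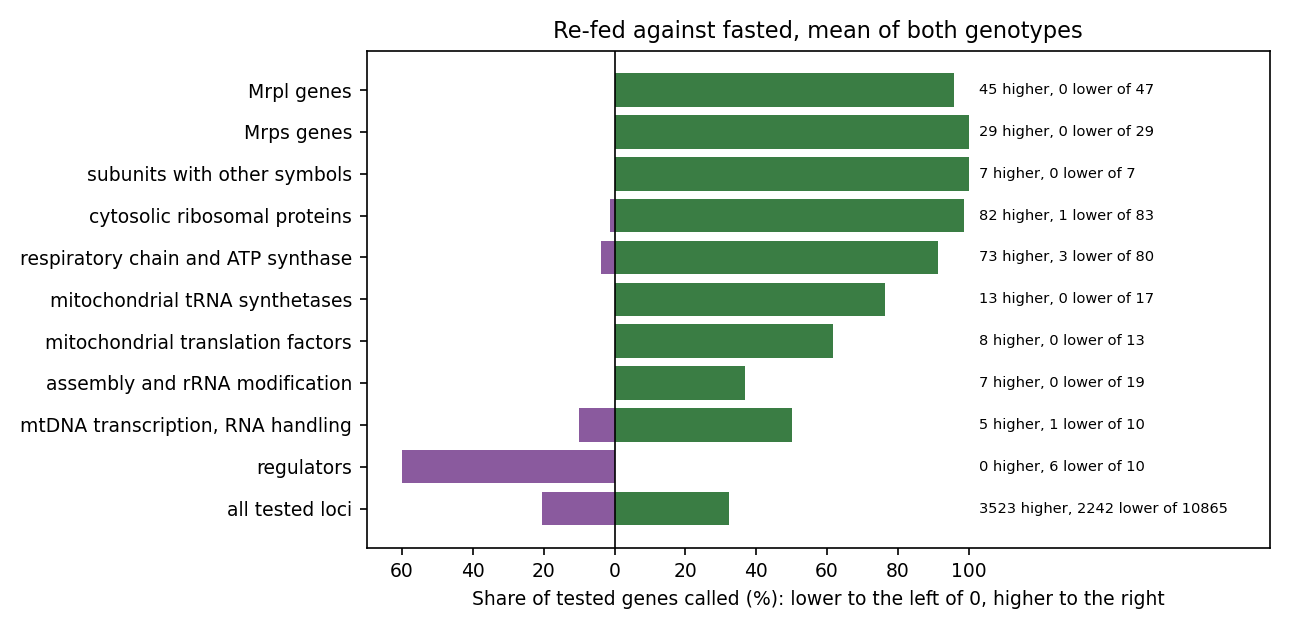
Share of tested genes called after re-feeding (limma, adjusted p under 0.05, mean of both genotypes) for Mrpl and Mrps genes, related lists and all tested loci; bars to the right are genes called higher, bars to the left genes called lower, with counts at the right. Of the regulators 6 of 10 were called lower, while 74 of 76 members were called higher.

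Members lie on 17 chromosomes, with at most 10 on one (chromosome 11). Many start close to another gene that runs the other way. On the deposited mm9 positions and the strands of a reference annotation, 27 members had such a head-to-head partner within 1000 bases. Of 22 partners that are no members and were tested, 7 rose after re-feeding and none fell, a share near the background of 32.4%, and their median log2 fold change was 0.13. Sars2, the mitochondrial seryl-tRNA synthetase beside Mrps12, rose by 0.75. Tcp1 beside Mrpl18 stood at -0.08 and did not pass. Mrpl46 and Mrps11 are each other's partner, and both rose, by 0.72 and 1.14.

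Reads do not tell strands apart with this kit, so members that overlap another locus are uncertain. There were 9 such members. Mrps25 overlaps Nr2c2 by 3536 bases, and Nr2c2 fell by 1.28 where Mrps25 rose by 0.87. Mrpl49 overlaps Syvn1 by 89 bases, and Syvn1 rose by 1.27 where Mrpl49 rose by 0.79. The other 7 were Mrpl19, Mrpl24, Mrpl41, Mrpl48, Mrpl53, Mrps27 and Mrps6.

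Since the members moved together, their promoters were read (250 bases before to 50 bases after each start, RefSeq, GRCm38.p6, 67 of 76 members matched). Searched on both strands were the core of ETS family sites, CCGGAAG, and the half-site of NRF1, TGCGCA. The ETS core was present for 24 of 67 members (35.8%), against 21.1% of genes tested in the files and 12.9% of all protein-coding genes in the table. The NRF1 half-site was present for 19 of 67 (28.4%), against 16.3% of tested and 11% of protein-coding genes. Either motif was present for 55.2% of members, against 33.6% of tested genes. In the values as deposited, the 24 members with an ETS core had a median log2 fold change after re-feeding of 0.90 and the 43 without it 0.66. The 19 with an NRF1 half-site had 0.66 and the 48 without it 0.74. Log2 fold change of members correlated with log2 length (r = -0.49), and these medians were not recomputed with the length trend removed. The part of length in the split was therefore not tested, and the medians do not link a motif to a larger rise. A match is a string of letters and does not show that a factor binds.

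Printed here are the promoters of the 3 members with the largest rises, that of Mrpl17, which did not pass, and the stretch between Mrpl46 and Mrps11. They lie at chr7:28741772-28742071 (Mrps12, minus strand), chr13:99344536-99344835 (Mrps27, plus strand), chr7:142532782-142533081 (Mrpl23, plus strand), chr7:105811038-105811337 (Mrpl17, minus strand) and chr7:78782881-78783180 (Mrps11, plus strand). Each runs 5′ to 3′ on the strand of its gene. Capitals mark ETS cores and NRF1 half-sites on either strand in the first 4, and in the last the 41 bases between the 2 divergent starts.
Mrps12: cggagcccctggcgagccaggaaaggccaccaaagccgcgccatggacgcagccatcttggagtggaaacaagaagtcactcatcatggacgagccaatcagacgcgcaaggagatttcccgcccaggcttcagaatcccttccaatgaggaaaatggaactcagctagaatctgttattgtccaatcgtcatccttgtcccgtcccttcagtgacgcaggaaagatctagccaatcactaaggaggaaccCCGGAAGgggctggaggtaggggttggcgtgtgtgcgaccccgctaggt
Mrps27: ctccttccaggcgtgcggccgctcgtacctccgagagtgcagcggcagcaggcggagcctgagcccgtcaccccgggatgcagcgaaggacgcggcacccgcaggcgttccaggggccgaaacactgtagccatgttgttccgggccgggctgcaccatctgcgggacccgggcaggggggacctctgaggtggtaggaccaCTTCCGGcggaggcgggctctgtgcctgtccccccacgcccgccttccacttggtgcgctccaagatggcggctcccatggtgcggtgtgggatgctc
Mrpl23: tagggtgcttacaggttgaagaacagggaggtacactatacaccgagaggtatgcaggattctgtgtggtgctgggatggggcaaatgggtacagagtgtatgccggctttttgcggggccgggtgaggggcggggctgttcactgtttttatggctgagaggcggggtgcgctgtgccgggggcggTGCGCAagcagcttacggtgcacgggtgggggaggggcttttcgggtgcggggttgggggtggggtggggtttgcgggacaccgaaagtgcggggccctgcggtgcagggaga
Mrpl17: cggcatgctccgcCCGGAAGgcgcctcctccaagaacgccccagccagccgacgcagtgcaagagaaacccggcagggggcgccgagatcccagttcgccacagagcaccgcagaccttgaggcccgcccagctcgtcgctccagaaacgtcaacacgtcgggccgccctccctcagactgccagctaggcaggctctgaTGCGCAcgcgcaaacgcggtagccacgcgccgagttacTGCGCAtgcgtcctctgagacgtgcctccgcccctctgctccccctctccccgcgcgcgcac
Mrpl46 and Mrps11: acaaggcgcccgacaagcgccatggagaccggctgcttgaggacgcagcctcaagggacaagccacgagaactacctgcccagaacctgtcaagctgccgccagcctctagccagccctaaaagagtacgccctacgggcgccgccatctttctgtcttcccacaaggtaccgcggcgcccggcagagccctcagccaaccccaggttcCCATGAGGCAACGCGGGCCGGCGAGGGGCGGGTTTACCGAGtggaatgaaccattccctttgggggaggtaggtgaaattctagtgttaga
Mrps12 and Mrps27 each hold 1 ETS core and Mrpl23 holds 1 NRF1 half-site. Mrpl17 holds 1 ETS core and 2 NRF1 half-sites and did not pass after re-feeding. The window of Mrpl46 and Mrps11 holds neither motif, and both genes rose.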

How the data were processed

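Liver polyA RNA of 8 mice was sequenced as TruSeq libraries, per the labels' protocols. The authors deposited 1 table of FPKM values per library; TopHat 1.4.1, Cufflinks 2.0.2, Cuffdiff 2.0.2 and the build mm9 are named in the submitters' processing notes. Depth is unknown, so no interval for counting error was made. The deposited values were used without further scaling. Loci were tested where 2 or more libraries reached 1 FPKM (10865 loci), on log2(FPKM + 1) with limma 3.58.1 (R 4.3.3), with 4 group means, 4 residual degrees of freedom and an eBayes trend, and p-values (two-sided) were adjusted by Benjamini-Hochberg over all tested loci. Log2 fold changes on this scale understate changes of low genes. The procedure was tested on simulated data. Alternatives were other pseudocounts, median-ratio and quantile scaling, no filter, removal of the length trend, a replicate block, the 4 libraries of a comparison alone, and leaving out each library. Transcript lengths (the median transcript of a gene) and strands came from GENCODE vM21 by symbol, for 98.9% of tested loci. Some lengths, such as that of Mrps26, were longer than the deposited locus. The length trend was a smooth curve over all loci, fitted per library. Deposited starts count from 0 and are printed 1 higher. Members and lists were chosen with earlier results of these data known. Named genes were, per comparison, the 10 largest and 10 smallest changes that passed (where fewer than 4 passed, the 3 of each subunit with the smallest p), the extremes of level, and up to 3 genes per list by p. Mrpl9, Mrpl17, Mrpl46, the neighbouring genes, Gabpa, Tfb2m, Rps27, Atp5s, Atp5sl, Cox6b2, Nrf1, Rn45s and Sox9 were named after their values were seen. So were Mrps26 and the hepatocyte markers Trf, Ttr, Cps1, Apoa1, Apoc3 and Serpina1a.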

Additional observations from a re-analysis of the deposited data

Results flagged for a closer look

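In 2 members LMKO lay above control in re-fed livers and below control in fasted livers, without overlap in either state. Among all tested loci, LMKO lay above control without overlap for 25.6% in re-fed livers. In fasted livers LMKO lay below control without overlap for 12.8% of them. The share of all tested loci with both was not counted, so whether members show this crossing more often than other loci was not tested. Mrps2, a small subunit protein, had 25.3 and 28.2 FPKM in re-fed LMKO, against 23.1 and 22.7 FPKM in re-fed control, and 18.1 and 16.9 FPKM in fasted LMKO, against 18.4 and 22.6 FPKM in fasted control. The difference between the genotype effects was 0.42 on the log2 scale and did not pass (limma, adjusted p = 0.55). Mrps31 had 25.5 and 27.4 FPKM in re-fed LMKO, against 24.3 and 23.3 FPKM in re-fed control, and 19.3 and 18.2 FPKM in fasted LMKO, against 19.9 and 20.5 FPKM in fasted control. Its difference was 0.25 and did not pass either (limma, adjusted p = 0.62).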

How the results depend on the processing

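Members called, subunit medians (log2 fold change, Mrpl then Mrps) and named genes were recomputed under each alternative; the length-removed fits with the longest transcript or without re-fed control replicate 1 were chosen after seeing the data. No alternative called a member in a genotype comparison, and no median reversed. With a pseudocount of 0.1 the Mrpl median after re-feeding was 0.77 in LMKO mice and 0.73 over both genotypes, and with 0.5 it was 0.70 over both. Median-ratio scaling, which moved the median of all loci in control mice after re-feeding by over 0.1, gave 0.63 (Mrpl) in LMKO mice, 0.51 and 0.57 in control mice and 0.56 and 0.65 over both; for LMKO against control it gave 0.067 and 0.073 fasted and 0.16 (Mrpl) in the mean, and 0.18 (Mrpl) for the interaction. Quantile normalization gave 0.52 and 0.61 in LMKO mice, 0.43 and 0.45 with 41 called in control mice, and 0.47 and 0.59 over both; for LMKO against control the Mrpl medians were 0.18 re-fed, 0.10 fasted and 0.14 in the mean.

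With the length trend removed, 25 members were called in LMKO mice (0.29 and 0.41), 27 in control mice (0.30 and 0.42) and 43 over both (0.28 and 0.47). By the longest transcript these were 26 (0.26 and 0.44), 25 (0.26 and 0.37) and 39 (0.23 and 0.45), and without re-fed control replicate 1 they were 25, 14 and 36. LMKO against control then gave 0.093 and 0.11 re-fed, 0.058 and 0.032 fasted and 0.076 and 0.077 in the mean, and by the longest transcript 0.088 and 0.091 re-fed, 0.054 and 0.030 fasted and 0.070 and 0.084 in the mean.

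Leaving out 1 library in turn, called members ranged from 37 to 72 in LMKO mice and from 36 to 58 in control mice. The medians ranged from 0.67 to 0.82 (Mrpl, LMKO), 0.60 to 0.78 (Mrps, control) and 0.65 to 0.71 (Mrpl, both). For LMKO against control they ranged from 0.17 to 0.37 (Mrps, re-fed), 0.090 to 0.22 (Mrpl, fasted), 0.15 to 0.25 (Mrpl, mean) and 0.18 to 0.26 (Mrps, mean), and for the interaction from 0.072 to 0.16 (Mrpl). Of the members called over both genotypes, 70 were called in all 8 such fits.

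Named genes reversed mostly with the length trend removed. Over both genotypes after re-feeding, Mrpl24 was at -0.10, by the longest transcript at -0.15, without re-fed control replicate 1 at -0.061 and after quantile normalization at -0.035; Mrpl41 was at -0.062 by the longest transcript and at -0.036 without that library; Mrps23 (-0.036), Mrps31 (-0.042) and Mrps9 (-0.0020) reversed by the longest transcript. In LMKO mice Mrpl21 was at -0.090, -0.11 and -0.090 under the 3 length settings, and by the longest transcript Mrpl24 was at -0.0051 and Mrps9 at -0.074. In control mice Mrpl41 was at -0.052, -0.12 and -0.16. For LMKO against control Mrpl42 was at -0.010 by the longest transcript and Mrpl19 at -0.0027 without re-fed LMKO replicate 2. The cause was not tested.

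The labels give replicate numbers, but over all tested loci same-numbered libraries did not deviate together (r between -0.08 and -0.01). The main fit therefore used no pairing. Such a correlation cannot exclude something shared that touches few loci. With a replicate block 68 members were called in LMKO mice, 55 in control mice, 72 over both and 0 for genotype. With 2 mice per group p-values measure the spread between these mice, low FPKM values are imprecise to an unknown degree, and small differences between genotypes may go uncalled.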
